A study of Mus musculus with 2 samples.

Results

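The 8 transcription factors of the Schwann cell lineage and of nerve repair, Sox10, Foxd3, Tfap2a, Sox2, Olig1, Pou3f1, Egr2 and Zfp536, were followed through single GFP+ cells of denervated hind limb muscle. The members, 8 of the 32287 features in the count matrix, were chosen by name, with no threshold on their values. They were read in Schwann cells and in every other cell class, each class being set by UMIs (unique molecular identifiers, which count captured RNA molecules) of marker genes that exclude the members. The tibialis anterior and gastrocnemius muscles came from 2-month-old male S100GFPtg mice labelled WT (wild type), in which GFP is driven by the promoter of S100b, a calcium-binding protein gene of glia, and were taken 7 days after crush of the sciatic nerve. Live GFP+ cells were sorted and made into 1 droplet library of 3' ends. The sources disagree on whether 1 or several animals were used. A library of GFP- cells from the same crush was not analysed here, nor was an uncrushed library, so the values describe the cells after crush and not a change caused by it.

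Schwann cells arise from the neural crest, and Sox10 is needed at every stage of their development. During myelination Sox10 acts with Pou3f1 (also called Oct6 or SCIP) to switch on Egr2 (Krox20), which in turn drives myelin genes. Sox2 holds immature and injured Schwann cells back from myelinating, and Olig1, best known from oligodendrocytes, is also expressed by repair Schwann cells after nerve injury. Foxd3 and Tfap2a are regulators of neural crest and Schwann cell precursors, and Zfp536 encodes a zinc finger protein described as a brake on neural differentiation.

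The library held 36400 barcodes and 170648616 UMIs. Of 8894 barcodes with at least 5000 UMIs, 8701 passed the filters of over 200 genes and mitochondrial UMIs under 10%. The Schwann gate asked for at least 3 UMIs over at least 2 of 4 Schwann marker genes, among them Cdh19, Erbb3 and Gfra3, and was passed by 108 of these barcodes (1.24%). Of these, 37 also passed the gate of another class, most often fibroblast (20) or macrophage (18). The remaining 71 are called Schwann cells below. They held 645102 UMIs, from 5056 to 27086 per cell with a median of 8129, so that 1 UMI over the whole class was worth 1.55 CPM, that is, UMIs scaled to a library of 1000000. The 7617 barcodes of all other classes pooled had a median of 11570 UMIs. In all, 372 barcodes, among them 1 Schwann cell, also occurred in the GFP- library. With 1 library there was no replicate, and every interval below is a 95% interval for counting error alone, exact Poisson for CPM, exact binomial for shares and exact conditional for log2 ratios. For a share of 0, the limit given is 3 cells of the total.

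The gate itself fixed that its genes were found in the Schwann cells, so their values describe the cells and are no check of the label. Cdh19, a cadherin of Schwann cell precursors, was at 1702 CPM and had UMIs in 71 of 71 cells. Erbb3, the neuregulin receptor gene, was at 259 CPM in 59 cells, and Gfra3, the artemin receptor gene, at 48.1 CPM in 10 cells. Markers of other classes were low by construction too, because barcodes that passed other gates had been left out. The summed 14 macrophage markers were at 169 CPM in Schwann cells and at 25689.5 CPM in macrophages, with Fcgr1, Ly6c2, Chil3 and Ccr2 at 0. The summed 9 fibroblast markers were at 904 CPM compared with 30236 CPM in fibroblasts, with Dpp4 at 0. All 7 T and NK markers, 8 of 9 satellite cell markers and 4 of 5 melanocyte markers were at 0. The part of free RNA from these classes in the member values was not tested.

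Of the 8 members, 7 were at least 4-fold higher in Schwann cells than in all other gated barcodes pooled, a fold that 11.3% of the 19676 genes with at least 10 UMIs over both also reached. Egr2 was at least 4-fold lower, as were 6.59% of those genes. The 7 ranged from 59.9-fold higher for Pou3f1 to 2152-fold for Sox2. The size of these ratios depended on the depth of the barcodes. With a minimum of 3000 UMIs Sox2 was 1274-fold and Olig1 1104-fold higher (1804-fold here), and Foxd3 was then the highest member at 1553-fold, as it was with a minimum of 10000 UMIs at 2789.6-fold, compared with 2701-fold for Sox2. In barcodes of at least 1000 but fewer than 5000 UMIs, Sox10 was at 239.6 CPM in cells of the Schwann gate and 1.98 CPM in macrophages, compared with 274 and 0.178 CPM in the deeper barcodes used throughout. By the size of the ratio with 0.5 counts added on both sides, which lowers ratios that rest on few UMIs, Sox2, Foxd3, Olig1 and Sox10 stood at places 12, 15, 17 and 26 of the 19676 genes, Zfp536 and Tfap2a at 63 and 66, Pou3f1 at 224 and Egr2 at 17819. CPM values of different members are not ranked against each other, since 3' tags do not give a level per length.

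**Figure D1:**
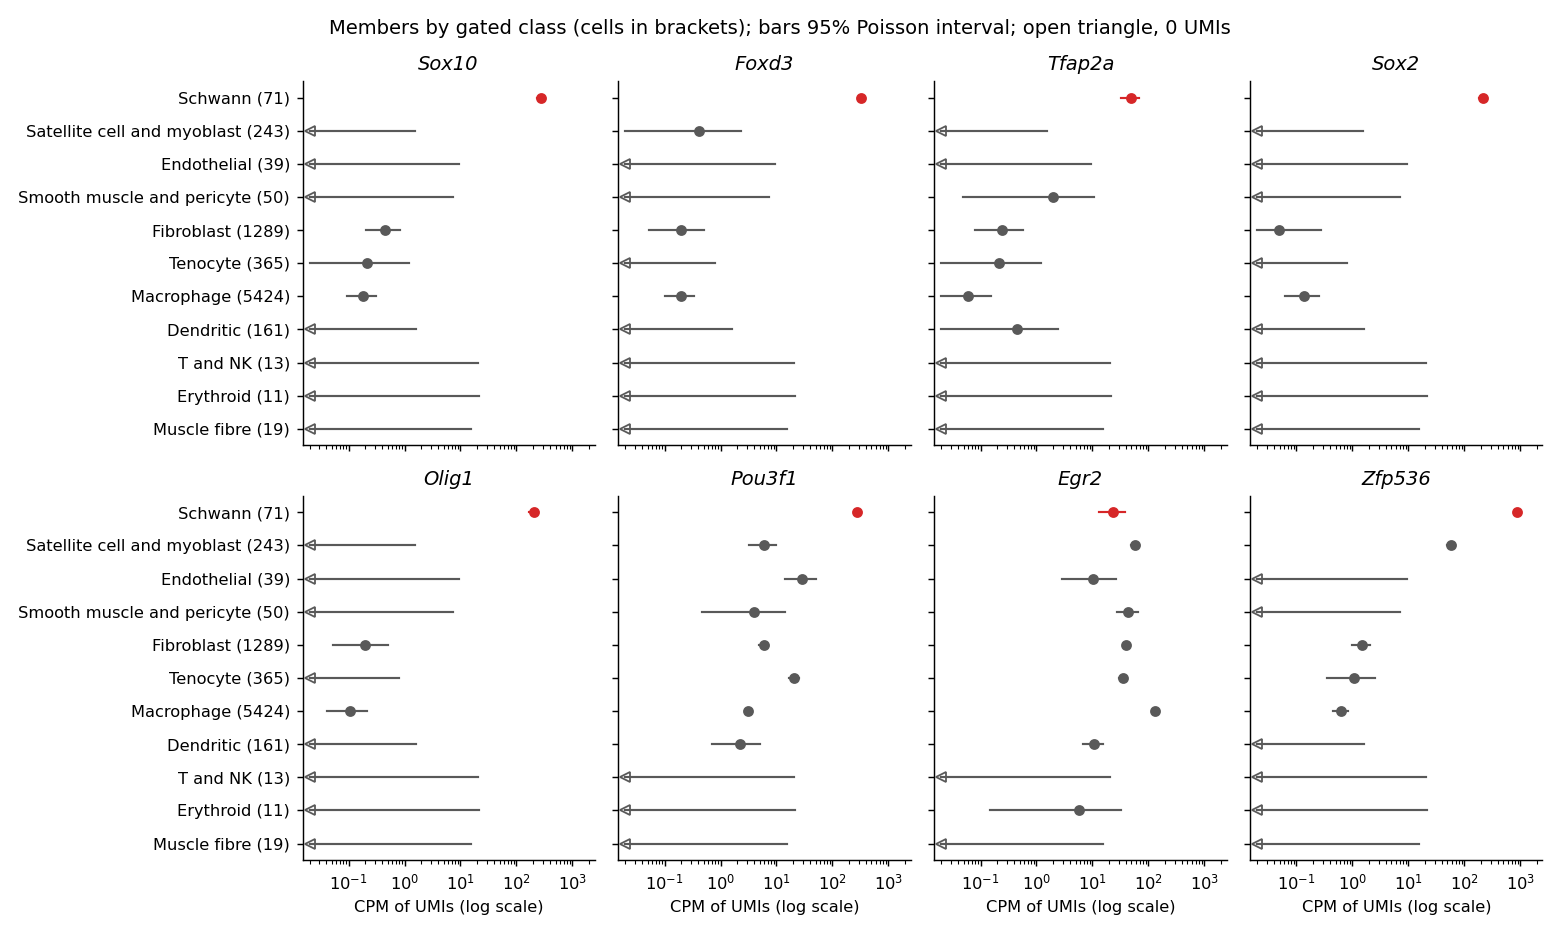
CPM of UMIs (log axis) of each member in the 11 classes with at least 10 cells, with exact 95% Poisson intervals; open triangles at the left edge mark classes with 0 UMIs, and intervals that run below 0.02 CPM are cut there. Schwann cells, in red, lie to the right of every other class for 7 members, whereas Egr2 is highest in macrophages.

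Sox10, the lineage factor of all Schwann cells (ENSMUSG00000033006, chr15:79154913-79164490 in RefSeq on GRCm38.p6), had 177 UMIs in Schwann cells, or 274 CPM (235 to 318). With the 37 barcodes of several classes kept the level was 175 CPM. Single cells held from 0 to 7 UMIs with a median of 2, and 63 of 71 held at least 1 UMI. The variance between cells was 1.16 times the mean, at cell depths that differed and at few UMIs per cell. Outside Schwann cells Sox10 was rare, with 22 UMIs in 21 of 7617 barcodes (0.223 CPM, 0.140 to 0.338) and a log2 ratio of 10.26 (9.62 to 10.97). Macrophages were at 0.178 CPM, fibroblasts at 0.441 CPM and tenocytes at 0.217 CPM, and these 3 intervals overlapped. The other 7 classes had 0 UMIs. Drawn down to 5000 UMIs per cell, 75.0% (62.9 to 84.2%) of Schwann cells were expected to show a Sox10 UMI, compared with 88.7% at full depth. Endothelial cells, a class that should lack it, showed a UMI in 0 of 39 cells, which allows a share of cells with a UMI of up to 7.69%, at a median depth of 7401 UMIs. The Schwann cells' CPM was at least 35.4-fold higher than in endothelial cells, taking 3 counts over that class as the floor.

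The 8 Schwann cells without a Sox10 UMI were not otherwise empty of members. All 8 held Zfp536 UMIs, at 887 CPM compared with 885 CPM in the 63 cells with Sox10, but at 506 and 860.0 CPM without the richest cell of each set, which held 25 of the 51 UMIs in the 8 cells. Of the 8 cells, 5 held Foxd3 and 5 held Sox2. Their median depth was 6210 UMIs compared with 8497 UMIs, so a missed Sox10 molecule and an absent one cannot be told apart.

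Foxd3, a forkhead factor of neural crest (ENSMUSG00000067261, chr4:99656299-99658671), is a gene of 1 exon. Its promoter is shown because Foxd3 was among the 4 members with the highest ratios to other classes. The 250 bases before its start, chr4:99656049-99656298, plus strand, held the cAMP response element TGACGTCA, found in 1.55% of 32817 promoter windows of this length on either strand, and the E-box CACGTG, found in 6.02%. Both are in capitals below, and neither is shown to be bound here.
Foxd3 promoter: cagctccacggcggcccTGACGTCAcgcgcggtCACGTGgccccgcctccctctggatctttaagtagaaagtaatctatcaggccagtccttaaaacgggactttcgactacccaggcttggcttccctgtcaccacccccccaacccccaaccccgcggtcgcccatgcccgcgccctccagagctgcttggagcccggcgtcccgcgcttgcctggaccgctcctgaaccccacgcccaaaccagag

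Foxd3 had 212 UMIs in Schwann cells, or 329 CPM (286 to 376), with 0 to 9 UMIs per cell, a median of 3, a variance 1.79 times the mean and UMIs in 62 of 71 cells. With the barcodes of several classes kept the level was 219.5 CPM. The share expected at 5000 UMIs was 74.6% (62.9 to 84.2%), compared with 87.3% at full depth, and 0 of 39 endothelial cells held a UMI. All other classes together had 18 UMIs and a level of 0.183 CPM (0.108 to 0.289), which put the log2 ratio at 10.81 (10.12 to 11.59). These UMIs were spread over macrophages (0.193 CPM), fibroblasts (0.196 CPM) and 1 satellite cell, with overlapping intervals. Foxd3 and Sox10 occurred together in 57 cells, and 3 cells had neither. The 9 cells without Foxd3 had 128 CPM of Sox10 (58.3 to 242), compared with 292 CPM (249.9 to 340.1) in the 62 cells with it, at median depths of 7293 and 8461 UMIs.

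Tfap2a encodes an AP-2 factor of neural crest (ENSMUSG00000021359, chr13:40713802-40738238). It was sparse, with 31 UMIs or 48.1 CPM (32.7 to 68.2) in Schwann cells. Of the 71 cells, 48 had 0 UMIs, 16 had 1 UMI and the highest had 3. At 5000 UMIs per cell 21.5% (12.3 to 32.4%) were expected to show a UMI, compared with 32.4% at full depth. The 7617 other barcodes had 12 UMIs (0.122 CPM, log2 ratio 8.62, 7.62 to 9.72), and 0 of 39 endothelial cells held a UMI. Of the 23 cells with Tfap2a, 22 also held Foxd3 and 21 held Sox10.

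Sox2, which restrains myelination in immature and injured Schwann cells (ENSMUSG00000074637, chr3:34649995-34652461), has 1 exon and lies inside the longer noncoding gene Sox2ot (chr3:34560381-34677993). Reads that fit both genes may have gone uncounted. Its promoter is shown for the SOX motif that it holds, since 2 members are SOX factors. The motif ACAAAG, in capitals, begins 206 bases before the start in chr3:34649745-34649994, plus strand, and was found on either strand in 16.5% of promoter windows.
Sox2 promoter: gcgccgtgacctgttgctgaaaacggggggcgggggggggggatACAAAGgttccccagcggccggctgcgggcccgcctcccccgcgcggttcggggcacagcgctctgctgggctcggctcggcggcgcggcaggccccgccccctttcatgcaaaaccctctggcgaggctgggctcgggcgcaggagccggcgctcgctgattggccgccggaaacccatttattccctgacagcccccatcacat

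Sox2 had 141 UMIs in Schwann cells, or 219 CPM (184 to 258), and 142 CPM with the barcodes of several classes kept. Cells held 0 to 10 UMIs with a median of 1, 50 of 71 held at least 1, and 24 held 3 or more. The spread between cells was larger than that of Sox10, with a variance 2.50 times the mean. The expected share at 5000 UMIs was 56.3% (44.0 to 68.1%), compared with 70.4% at full depth. Only 10 UMIs in 9 barcodes were found in all other classes (0.102 CPM, 0.0487 to 0.187), 9 of them in macrophages and 1 in a fibroblast, and the log2 ratio was 11.07 (10.15 to 12.16). Endothelial cells had 0 UMIs, which put Schwann cells at least 28.2-fold higher. Sox2 and Sox10 were seen together in 45 cells and Sox2 without Sox10 in 5.

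Olig1 encodes a basic helix-loop-helix factor of the oligodendrocyte lineage (ENSMUSG00000046160, chr16:91269769-91271939). It had 130 UMIs in Schwann cells, or 202 CPM (168 to 239), but in an uneven pattern. Of 71 cells, 33 held none, 9 held 1 UMI, 19 held 3 or more and the highest held 15, with a median of 1 and a variance 4.32 times the mean. The expected share at 5000 UMIs was 45.3% (33.2 to 57.3%), compared with 53.5% at full depth. Other classes had 11 UMIs (0.112 CPM, 0.0558 to 0.200), with a log2 ratio of 10.82 (9.93 to 11.85) and 0 of 39 endothelial cells. Its relative Olig2, the other oligodendrocyte factor of the family, had 1 UMI in Schwann cells, and Olig3 had 0.

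Cells with and without Olig1 were set side by side. Egr2 was at 8.32 CPM (1.72 to 24.3) in the 38 cells with Olig1 and at 42.2 CPM (21.8 to 73.6) in the 33 without, from 3 and 12 UMIs, and these intervals overlapped. Pou3f1 was at 175 CPM (134 to 224) and 411 CPM (339.9 to 493), and without the cell that held the most Pou3f1 UMIs in each set at 158 and 299 CPM. The Pou3f1 intervals of all cells did not overlap, but they leave out the spread between cells, which for Pou3f1 was above counting error. For Sox10 (272 and 278 CPM), Foxd3 (336 and 319.7 CPM) and Sox2 (225 and 211 CPM) the intervals overlapped. These cells come from 1 library, the sets were described after their values were seen, and no test was made.

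Pou3f1, the POU factor of the promyelin stage (ENSMUSG00000090125, chr4:124657646-124660655), had 180 UMIs in Schwann cells, or 279 CPM (239.8 to 323). With the barcodes of several classes kept the level was 169.8 CPM and the ratio to other classes fell from 59.9-fold to 36.4-fold. Cells held 0 to 37 UMIs with a median of 1, 25 held none, and 1 cell held 20.6% of the UMIs. The variance was 9.21 times the mean, but 3.04 times without that cell, when the level was 228 CPM. Without their own richest cell, Zfp536 (4.47) and Olig1 (3.34) had larger values of this ratio. The expected share at 5000 UMIs was 53.5% (41.3 to 65.5%), compared with 64.8% at full depth. All other classes pooled were at 4.66 CPM (4.24 to 5.11), compared with at most 0.223 CPM for the 5 members above. Endothelial cells were at 28.4 CPM (14.2 to 50.8; 9 of 39 cells) and tenocytes at 21.0 CPM (17.0 to 25.6; 66 of 365 cells), and these intervals overlapped. Satellite cells (5.89 CPM), fibroblasts (5.88 CPM), smooth muscle cells and pericytes (3.92 CPM), macrophages (3.12 CPM) and dendritic cells (2.21 CPM) followed, and all 5 lay below tenocytes with no overlap of intervals. Neighbours among these 5 overlapped, whereas fibroblasts (4.87 to 7.03) and macrophages (2.71 to 3.57) did not overlap. T and NK cells, erythroid cells and muscle fibres had 0 UMIs. Schwann cells were 9.82-fold above endothelial cells, a log2 ratio of 3.30 (2.42 to 4.32), and 13.3-fold above tenocytes. Of all deep Pou3f1 UMIs, 24.0% lay in Schwann cells, 28.0% in the far more numerous macrophages and 16.0% in fibroblasts. Its relative Pou3f2 had 6 UMIs in 4 Schwann cells and 2 UMIs in all other classes.

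**Figure D2:**
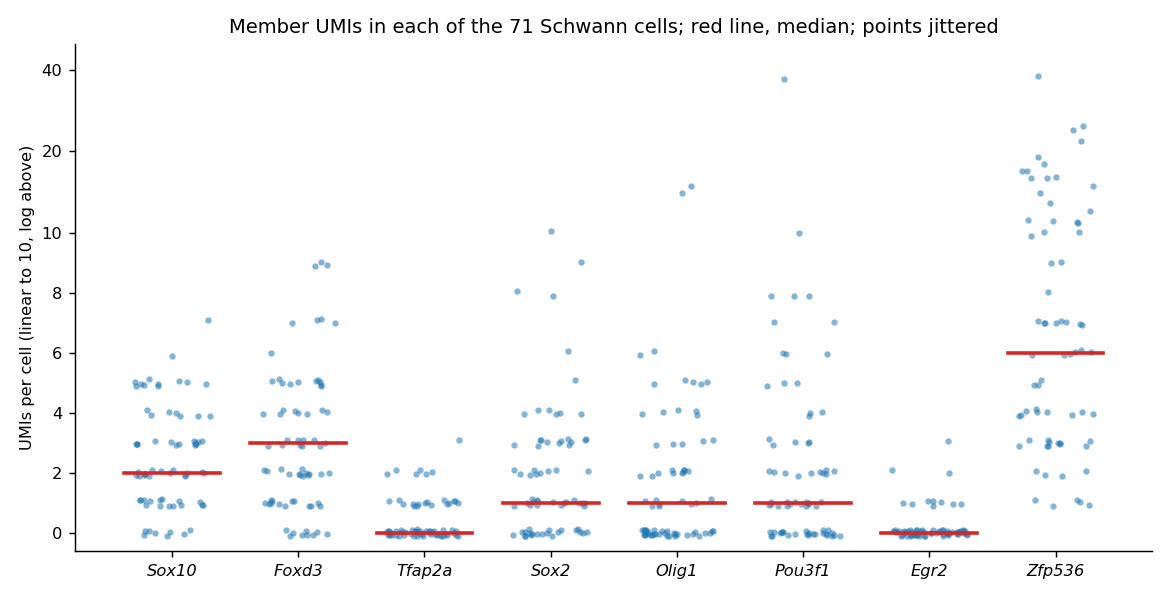
UMIs of each member in each of the 71 Schwann cells (linear axis to 10, logarithmic above), with the median as a red line and points jittered. Sox10 and Foxd3 reach at most 7 and 9 UMIs, Olig1 and Pou3f1 combine many cells at 0 with a few high cells, Egr2 and Tfap2a are mostly at 0, and Zfp536 is above 0 in all 71 cells.

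Egr2, the myelination factor downstream of Sox10 and Pou3f1 (ENSMUSG00000037868, chr10:67534469-67542188), showed the reverse pattern. Schwann cells held 15 UMIs in 11 cells, with 0 to 3 UMIs per cell, or 23.3 CPM (13.0 to 38.4). All other classes pooled were at 101 CPM (99.3 to 103), so that the log2 ratio was -2.12 (-2.96 to -1.40), or 4.35-fold lower in Schwann cells. The 4-fold mark was reached under 5 of 9 other settings, and with the 37 barcodes of several classes kept the level was 50.5 CPM and the difference 2.00-fold. Of 10904 deep Egr2 UMIs, 80.8% were in macrophages, 7.47% in fibroblasts and 0.138% in Schwann cells. Egr2 is an immediate early gene, also used by myeloid cells, and several of its listed starts follow a CArG box, the sequence recognised by serum response factor. The stretch chr10:67537787-67537816, plus strand, lies before 3 of the 5 starts listed for the gene and is shown for this match, in capitals. A CArG box was found in 1.47% of promoter windows.
Egr2 CArG window: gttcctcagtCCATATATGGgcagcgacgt

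Across classes, Egr2 was highest in macrophages at 131 CPM (128 to 134; 2962 of 5424 cells), then in satellite cells and myoblasts at 58.1 CPM (48.8 to 68.6), with no overlap. Satellite cells overlapped in turn with smooth muscle cells and pericytes at 43.1 CPM (27.0 to 65.2). These, fibroblasts at 39.9 CPM (37.2 to 42.7), tenocytes at 34.6 CPM (29.5 to 40.5) and Schwann cells at 23.3 CPM each overlapped with the next. Dendritic cells at 10.6 CPM (6.81 to 15.8) and endothelial cells at 10.3 CPM (2.81 to 26.4) had intervals that overlapped with that of Schwann cells as well. Erythroid cells had 1 UMI, and T and NK cells and muscle fibres had 0. The log2 ratio of Schwann cells was -2.49 (-3.33 to -1.77) to macrophages, -0.78 (-1.62 to -0.05) to fibroblasts, -0.58 (-1.45 to 0.19) to tenocytes, 1.13 (0.09 to 2.12) to dendritic cells and 1.17 (-0.48 to 3.22) to endothelial cells. It was -1.32 (-2.20 to -0.55) to satellite cells and myoblasts and -0.89 (-1.94 to 0.12) to smooth muscle cells and pericytes. The interval lay above 0 for dendritic cells. At this depth Egr2 in Schwann cells was not distinguishable from its level in endothelial cells, tenocytes, or smooth muscle cells and pericytes. The expected share of cells with a UMI at 5000 UMIs was 9.71% (4.06 to 19.3%) in Schwann cells, 5.39% in endothelial cells and 37.1% in macrophages, and at full depth 15.5%, 7.69% and 54.6% of cells held a UMI. The median depth of these classes was 8129, 7401 and 11201 UMIs.

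Macrophage subsets differed in Egr2. Resident-like macrophages, marked by Lyve1, Folr2, Fcna, Cd163 and Timd4, reached 188 CPM (183 to 194), lipid-associated macrophages, marked by Gpnmb, Fabp5, Spp1 and Trem2, 75.6 CPM (69.9 to 81.7), and infiltrating monocytes, marked by Ly6c2, Chil3, Ccr2 and Plac8, 41.6 CPM (36.0 to 47.8), with no overlap between them. The other 2212 of the 5424 macrophages, with none or several of these marker sets, were at 112 CPM (108 to 116). Among fibroblasts, the nerve-sheath-like cells marked by Tenm2, Col28a1, Smim41 and Apod were at 59.6 CPM (52.3 to 67.5), above the whole class. The 37 barcodes that passed the Schwann gate and another gate were at 78.9 CPM (58.3 to 104). The 11 Schwann cells with Egr2 carried the summed macrophage markers at 182 CPM and the fibroblast markers at 929.8 CPM, compared with 166 and 898 CPM in the 60 without.

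**Figure D3:**
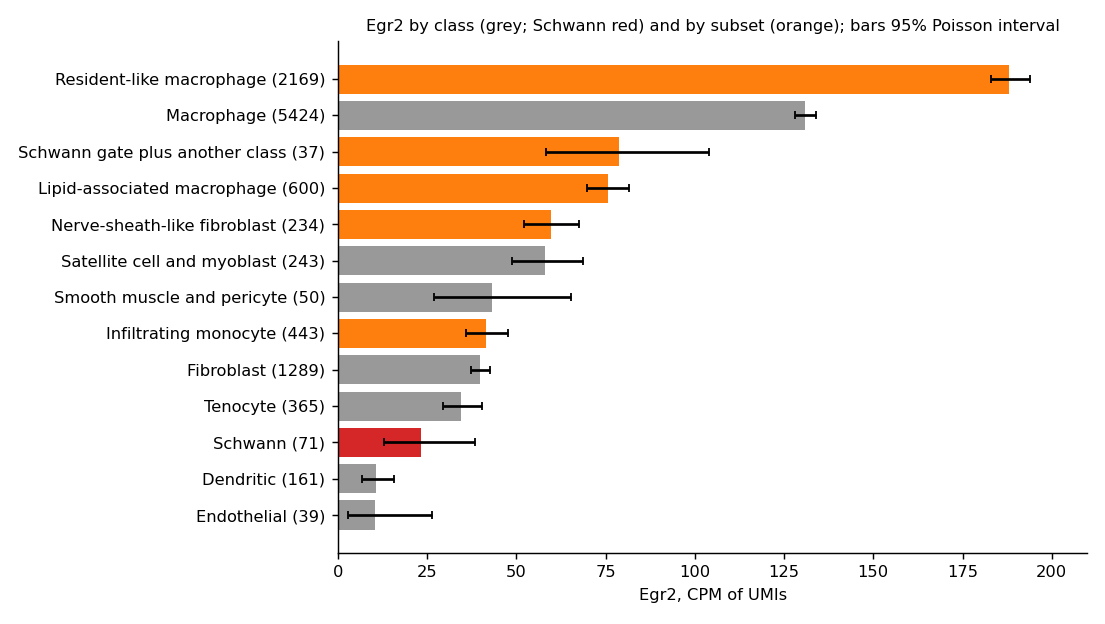
Egr2 in CPM of UMIs (linear axis from 0) by class, in grey with Schwann cells in red, and by subset, in orange, with exact 95% Poisson intervals; numbers of cells are in brackets, and subsets are also counted in their class. Resident-like macrophages are highest at 188 CPM and Schwann cells lie near the low end at 23.3 CPM. Macrophages with none or several of the subset marker sets (2212 cells) are not drawn as a subset.

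Zfp536 (ENSMUSG00000043456, chr7:37318023-37774039) spans 456 kb. It was the only member with UMIs in all 71 Schwann cells, and had 571 UMIs or 885 CPM (814 to 961). Cells held 1 to 38 UMIs with a median of 6, and the variance was 5.79 times the mean. The expected share at 5000 UMIs was 96.4% (88.1 to 99.1%). Intron reads are counted by default in the software that made the matrix. Of the other classes, satellite cells and myoblasts stood out, at 58.5 CPM (49.2 to 69.1) with UMIs in 78 of 243 cells. The sum of satellite cell markers in Schwann cells was 17.1 CPM, with Pax7, Myf5, Myod1 and Myog at 0. Fibroblasts were at 1.47 CPM, tenocytes at 1.08 CPM and macrophages at 0.624 CPM. The intervals of fibroblasts and tenocytes overlapped, as did those of tenocytes and macrophages. Endothelial cells, smooth muscle cells, dendritic cells, T and NK cells, erythroid cells and muscle fibres had 0 UMIs. Schwann cells were 15.1-fold above satellite cells, a log2 ratio of 3.92 (3.65 to 4.20), and at least 114-fold above endothelial cells.

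The members were found together in the same Schwann cells. Leaving out Egr2, a Schwann cell held UMIs of a median of 5 of the 7 members, 48 of 71 cells held 5 or more, 3 held all 7 and none held fewer than 2. Of the 7617 deeper barcodes of other classes, 7068 held none, 526 held 1, 21 held 2, 2 held 3 and none held more.

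**Figure D4:**
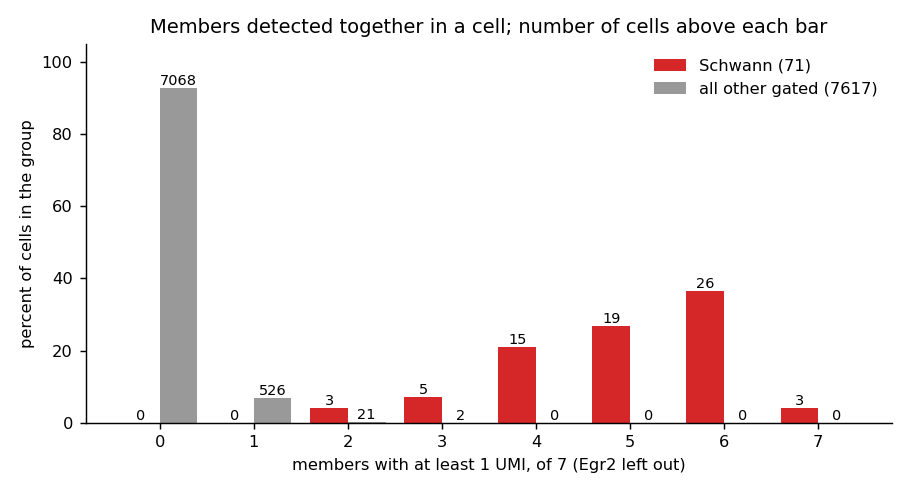
Percent of cells by the number of members, of 7 without Egr2, with at least 1 UMI, for 71 Schwann cells (red) and 7617 other gated barcodes (grey), with the number of cells above each bar. The groups meet only at 2 and 3 members, where 8 Schwann cells and 23 other barcodes lie.

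Sox2 and Egr2, which oppose each other in myelination, were found both together and apart. Of the 11 Schwann cells with Egr2, 8 held Sox2, and of the 60 without, 42 did. In 1 random draw of 5000 UMIs per cell, 4 of the 8 cells with Egr2 held Sox2. Sox2 was at 219 CPM in both sets. Pou3f1 was at 574 CPM (441 to 735) in cells with Egr2 and 219 CPM (181 to 262) in cells without, but without the top cell of each set the values were 280.0 and 207 CPM.

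The members were then compared between the 35 Schwann cells above and the 36 at or below the median summed CPM of the repair target genes, which include Ngfr, Gap43, Gdnf and Ucn2. Pou3f1 was at 166 CPM (124 to 217) in the richer cells compared with 391 CPM (326 to 465) in the others, with UMIs in 19 of 35 and 27 of 36 cells. The log2 ratio was -1.24 (-1.73 to -0.76), or -0.82 (-1.34 to -0.31) without the cell that held 37 UMIs, at median depths of 7441 and 8526 UMIs. These intervals leave out the spread between cells, which for Pou3f1 was above counting error, so no direction is read from them. For the other 7 members the interval of the log2 ratio included 0, from -0.16 for Sox10 to 0.69 for Tfap2a. In the same split by myelin target genes, Sox2 was at 268 CPM (216 to 328) in the richer and 163 CPM (120.3 to 215) in the poorer cells, a log2 ratio of 0.72 (0.20 to 1.25). The number of cells with a Sox2 UMI ran the other way, 23 of 35 compared with 27 of 36, so no order is read from it. Pou3f1 had a log2 ratio of -0.26 (-0.69 to 0.18) in that split, or -0.97 (-1.49 to -0.46) without the cell that held 37 UMIs. UMIs were found in 23 of 35 and 23 of 36 cells, so no order is read from it. Sox10 had a log2 ratio of -0.34 (-0.78 to 0.10), and Egr2 of 0.39 (-1.26 to 2.17), or -0.15 (-2.06 to 1.75) without its richest cell.

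Of 12 repair and anti-myelination regulators, 2 were at least 4-fold higher in Schwann cells, 2 lower and 8 neither, compared with 11.3% higher and 6.59% lower over all genes tested, with a median log2 ratio of 0.40 compared with 0.60 over all genes tested (0.64 and 0.90 with zero counts set to the floor of 3). Runx2, a runt factor known from bone and induced in injured Schwann cells, was at 2397 CPM (2279 to 2519) compared with 17.2 CPM, in 67 of 71 cells. Sox4, a SOX factor of progenitor cells, was at 215 CPM compared with 19.4 CPM, and at 91.7 CPM in satellite cells and myoblasts. Jun, the central repair factor, was at 1149 CPM in 70 of 71 Schwann cells but at 927 CPM in other classes, a log2 ratio of 0.31 (0.20 to 0.41), and tenocytes were at 1837 CPM. Atf3, a stress-induced factor, was at 1001 and 508 CPM. Id2, an inhibitor of helix-loop-helix factors, was lower at 20.2 CPM compared with 184 CPM, with dendritic cells the highest other class at 369 CPM. Egr3 was lower too, at 14.0 CPM compared with 59.4 CPM, with macrophages the highest other class at 69.1 CPM. Egr1, an immediate early relative of Egr2, was at 326 CPM compared with 1234 CPM and did not reach 4-fold.

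Among 10 lineage and myelination co-regulators with enough UMIs, of 11 listed, 2 were higher, 1 lower and 7 neither (median log2 ratio 0.27), which is near the 11.3% and 6.59% over all genes. Tead1, a partner of YAP and TAZ, was at 378 CPM compared with 47.3 CPM, and at 214 CPM in satellite cells and myoblasts. Sox8, of the same SOX group as Sox10, had only 5 UMIs in Schwann cells (7.75 CPM compared with 0.965 CPM), and tenocytes were at 7.36 CPM. Sox9, the remaining factor of that group, had 2 UMIs in 1 cell (3.10 CPM compared with 12.9 CPM). Zeb2, which is required for myelination, was at 1316 CPM compared with 1160.4 CPM, with macrophages the highest other class. The corepressors Nab1 (37.2 CPM compared with 69.0 CPM) and Nab2 (10.9 CPM compared with 21.5 CPM), through which Egr2 acts, did not reach 4-fold.

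Of 8 crest and precursor regulators with enough UMIs, of 9 listed, 2 were higher and 1 lower (median 0.42), against the same 11.3% and 6.59%. Sox6 was at 784 CPM compared with 12.2 CPM, in 68 of 71 cells, with smooth muscle cells and pericytes the highest other class at 323 CPM. Ets1 was at 191 CPM compared with 15.4 CPM, but T and NK cells were higher at 502 CPM. Mitf, the melanocyte master factor, was lower at 7.75 CPM compared with 256 CPM. Macrophages were the highest other class at 295 CPM, and no barcode was classed as a melanocyte. Tfap2b, the closest relative of Tfap2a in the crest, had 0 UMIs in Schwann cells, as had Snai2. Of 18 family relatives of the members only 8 had enough UMIs to compare, with Sox8 higher and Sox9 and Egr3 lower, against 11.3% and 6.59% of all genes (median 0.78, or 1.97 with zero counts set to the floor of 3).

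Among genes listed as targets, 8 of 9 repair targets with enough UMIs, of 10 listed, were higher in Schwann cells than in the pooled other classes. This compares with 11.3% of all genes tested, and none was lower (median log2 ratio 6.50). Whether the members act on these genes was not tested. The pool is mostly macrophages (5424 of 7617 barcodes). Alone of the 8, Clcf1 was higher in another class, at 31.0 CPM compared with 106 CPM in satellite cells and myoblasts. Cdh2 was at 166 CPM compared with 121 CPM in tenocytes. Ucn2, which encodes the peptide urocortin 2, was at 559.6 CPM compared with 0.193 CPM, Ngfr, the low-affinity neurotrophin receptor gene, at 632 CPM compared with 1.45 CPM, Gdnf, a motor neuron survival factor, at 229 CPM compared with 1.12 CPM, and Artn, which encodes artemin, at 41.9 CPM compared with 0.467 CPM. Bdnf was at 9.30 CPM compared with 10.5 CPM in the pool, and at 121 CPM in satellite cells and myoblasts. Shh had 0 UMIs in Schwann cells and in the pool. Of 12 myelin targets with enough UMIs, of 14 listed, 8 were higher and none lower. Of these 8, Ugt8a and Cldn19 had enough UMIs only through the Schwann cells and so had to be higher. Of the 10 that had enough in the other barcodes alone, 6 were higher (median 3.28, or 3.13 with zero counts set to the floor of 3), compared with 10.9% of 19587 genes. Several of them had few UMIs, such as Ugt8a, a galactolipid enzyme gene, at 29.5 CPM and Mag, a myelin adhesion gene, at 12.4 CPM. Mal, a myelin raft protein gene, was at 76.0 CPM compared with 0.112 CPM, and at 15.5 CPM in endothelial cells. Cnp, a gene of early myelin, was at 322 CPM compared with 18.7 CPM. Mbp (69.8 CPM compared with 21.5 CPM), Prx (9.30 CPM compared with 3.39 CPM) and Pmp22 (101 CPM compared with 287 CPM) did not reach 4-fold. For Mbp, T and NK cells were above Schwann cells at 83.6 CPM. Drp2 had 0 UMIs in Schwann cells and was at 133 CPM in satellite cells and myoblasts. Its pooled level of 4.13 CPM was too low for a call of lower. Gjb1 had 1 UMI in Schwann cells.

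**Figure D5:**
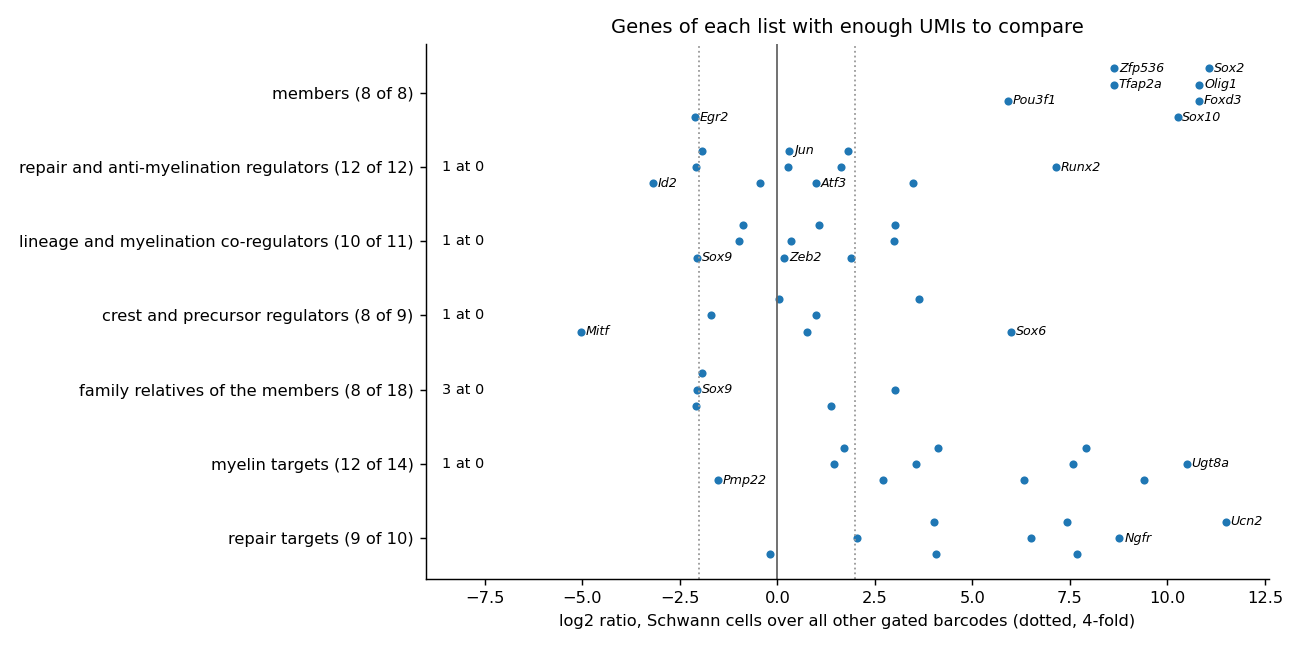
Log2 ratio of CPM, Schwann cells over all other gated barcodes, for each listed gene with at least 10 UMIs over both and UMIs in both; dotted lines mark 4-fold, brackets give genes compared of genes listed, and genes with 0 UMIs in Schwann cells are counted at the left. Of the members 7 lie between 5.90 and 11.07 and Egr2 at -2.12, while most regulators that are not members lie within 4-fold.

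The genes whose levels over the 11 classes were most like those of Sox10, by Pearson correlation of log2(CPM + 1) among 14421 genes with at least 100 UMIs, were Ucn2, Olig1, Luzp2, Gm20754 and Fgf5 (0.999 to 0.998). Sox2 and Foxd3 were among the 10 most like it, at 0.998 and 0.997, and Zfp536 (0.841) and Pou3f1 (0.753) were less like it. These values rest mainly on 1 class against the rest. For Egr2 the most similar genes were Ptpn23, Zfhx3, Creb5, Fam20c and Ptgr1 (0.930 to 0.912), and its correlation with Sox10 was 0.130. All points share 1 library.

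No Schwann cell passed a gate of cycling genes (Mki67, Top2a, Cenpf, Ube2c and Birc5, at least 5 UMIs over at least 2), 0 of 71, which allows a share of up to 4.23% by 3 cells of the total and 5.06% by the exact binomial interval, compared with 157 of 7617 other barcodes (2.06%, 1.75 to 2.41%). Cycling was thus not shown to be rarer in Schwann cells at this number of cells.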

How the data were processed

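Single-cell RNA-seq of FACS-sorted GFP+ PI- muscle cells was made with a 10x Genomics 3' HT kit. The deposited matrix holds raw UMI counts per gene and barcode, which the authors made with Cell Ranger at default parameters. The matrix header names version 8.0.1, whereas the submitters' processing notes name 7.1.0 (with Seurat 4.30). The notes give the build as mm10, and the study's methods name 2 builds. No RNA from free droplets was removed. Counts were used as deposited, with no normalization other than CPM.

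Barcodes needed at least 5000 UMIs, over 200 genes and under 10% mitochondrial counts. Barcodes of other classes needed at least 5 UMIs over at least 2 class markers and a minimum share of UMIs in them, which was set after the distributions had been seen. Barcodes that passed several gates (699) or none (314) were left out, and no doublet caller was run. The members, marker lists and gene lists were chosen with earlier results of these data known, and named genes from the lists were those with at least 10 UMIs in Schwann cells and the highest and lowest ratios, plus Jun, Atf3, Runx2, Sox9, Zeb2 and Id2, with further list genes named after their values were seen. Values of 2 genes are not reported here, and the myelin target list was taken without the gene of it that this concerns. Shares at 5000 UMIs are expected values of drawing UMIs without replacement, and their intervals are taken at the nearest whole number of cells. Ratios carry no p-value, since there is 1 library. List medians add 0.5 counts to both sides. The code was tested on simulated counts. Depth is 170648616 UMIs in all, and intervals cover counting error only. Promoters and positions came from RefSeq on GRCm38.p6, where promoters of 5 of the 8 members were listed. Motifs were searched on both strands. The code ran in Python 3.11.15 with pandas 2.3.3, scipy 1.17.1, numpy 2.4.6 and matplotlib 3.10.9.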

Additional observations from a re-analysis of the deposited data

How the results depend on the processing

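Under 9 alternatives each (2 of them, leaving out the cell richest in the gene and leaving out barcodes shared with the GFP- library, were chosen after seeing the data), the 7 members higher in Schwann cells kept a ratio of at least 4-fold, with log2 ratios of 9.62 to 10.37 for Sox10, 10.32 to 11.59 for Sox2, 5.19 to 6.40 for Pou3f1, 10.23 to 11.45 for Foxd3, 8.16 to 9.10 for Zfp536, 10.11 to 11.28 for Olig1 and 8.25 to 8.70 for Tfap2a. Egr2 stayed lower, from -2.42 to -1.0, and was below the 4-fold mark at 10000 UMIs, with over 500 genes and under 5% mitochondrial counts, with a gate of 5 UMIs over 3 genes, and with barcodes of several classes kept. Of 72 levels in CPM, 62 stayed within the 95% interval of the reported value, as did 62 of 72 log2 ratios. With barcodes of several classes kept (108 cells), levels were 175 CPM for Sox10, 142 for Sox2, 50.5 for Egr2, 169.8 for Pou3f1, 219.5 for Foxd3, 633 for Zfp536 and 139 for Olig1, and log2 ratios 9.62 for Sox10, -1.0 for Egr2, 5.19 for Pou3f1 and 8.16 for Zfp536. With at least 10000 UMIs (22 cells), Sox10 was at 224 and Pou3f1 at 355 CPM, and log2 ratios were 6.40 for Pou3f1 and 9.10 for Zfp536. The stricter gate gave 8.33 for Zfp536, and the mean of each cell's CPM 8.30 for Zfp536 and 5.62 for Pou3f1. Without the richest cell Pou3f1 was at 228 CPM with a log2 ratio of 5.61. Leaving out barcodes shared with the GFP- library moved no level or ratio of a member outside its interval. The causes were not tested. Drawn down to 2000 UMIs, the expected share of Schwann cells with a UMI was 42.6% for Sox10, 32.2% for Sox2, 31.6% for Pou3f1, 47.3% for Foxd3, 75.5% for Zfp536, 27.3% for Olig1 and 9.50% for Tfap2a, fewer because fewer UMIs were drawn, and at full depth 88.7% for Sox10, 70.4% for Sox2, 87.3% for Foxd3 and 100% for Zfp536. No paired analysis was possible because 1 library was analysed and the result comes from no test.

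The 71 cells and the single library limit these values. Intervals leave out the variation between cells, which for Pou3f1, Zfp536 and Olig1 was well above counting error, and between animals. Free RNA was not removed, and classes were rebuilt from markers.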

Other observations

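Among 25740 barcodes with at least 1000 but fewer than 5000 UMIs, 29 passed only the Schwann gate, with a median of 3180 UMIs. Zfp536 was at 970.0 CPM (775 to 1199), Sox10 at 239.6 CPM (148 to 366), Sox2 at 183 CPM (104 to 297), Foxd3 at 194 CPM (113 to 311), Olig1 at 126 CPM (62.7 to 225) and Tfap2a at 68.5 CPM (25.1 to 149) in them, and the intervals overlapped with those of the 71 deeper Schwann cells for Zfp536, Sox10, Sox2, Foxd3, Olig1 and Tfap2a. Pou3f1 was at 79.9 CPM (32.1 to 165) from 7 UMIs, below the 279 CPM of the deeper cells, and Egr2 had 1 UMI.

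In macrophages with at least 1000 but fewer than 5000 UMIs, every member but Egr2 was higher than in the deeper macrophages. The ratios of Schwann cells to macrophages were smaller there for these members. Median depth in this range was 1784 UMIs in macrophages and 3180 UMIs in cells of the Schwann gate. Sox10 was at 1.98 CPM (1.37 to 2.77) compared with 0.178 CPM, Sox2 at 1.75 compared with 0.134 CPM and Foxd3 at 2.45 compared with 0.193 CPM. Zfp536 was at 7.64 compared with 0.624 CPM, Olig1 at 1.69 compared with 0.104 CPM and Tfap2a at 0.933 compared with 0.0595 CPM. Pou3f1 was at 4.61 compared with 3.12 CPM, whereas Egr2 was at 102 compared with 131 CPM. In fibroblasts Sox2 (1.23 compared with 0.0490 CPM) and Zfp536 (6.44 compared with 1.47 CPM) were higher at low depth, with no overlap of intervals. For Sox10, Foxd3, Olig1, Tfap2a and Pou3f1 the fibroblast intervals of the 2 depths overlapped. Egr2 was also higher in fibroblasts at low depth, at 56.0 CPM (50.7 to 61.8) compared with 39.9 CPM (37.2 to 42.7). The cause was not tested.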
